A study of Mus musculus with 26 samples.

Results

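The genes described here are the Wnt pathway genes of the mouse: every protein-coding gene of GENCODE M21 whose symbol is Wnt or Fzd followed by a digit, Sfrp1 to Sfrp5, Dkk1 to Dkk4, Lrp5, Lrp6, Ror1, Ror2, Ryk, Axin1, Axin2, Ctnnb1, Apc, Tcf7, Tcf7l1, Tcf7l2 and Lef1. The rule used symbols only, and it found 50 of 21938 protein-coding genes: 19 ligands, 15 receptors and coreceptors, 8 secreted inhibitors and 8 effectors inside the cell. TrkC neurons, the proprioceptive neurons of the dorsal root ganglia (DRG), were taken at E11.5 from embryos that carry BAC-E-GFP, a bacterial artificial chromosome of the Runx3 locus that expresses GFP, on a CB6F1 background. GFP-positive cells from the pooled DRG of several embryos were sorted, mostly by FACS, and in some experiments neurons were isolated with magnetic beads and anti-TrkC, from GFP-positive or WT mice. Open chromatin was mapped by ATAC in 3 samples, and CUT&RUN, in which an antibody directs a nuclease to cut the DNA around its target, mapped H3K27Ac in 5, Runx3 in 8, Brn3a in 2 and Isl1 in 3 samples, with 5 samples of normal rabbit serum (NRS) as controls for peak calling. No mutant and no untreated group stands beside them, so every comparison below is between genes or between peaks.

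Wnt proteins are secreted, lipid-modified signals that bind Frizzled (Fzd) receptors together with the coreceptors Lrp5 or Lrp6, or with Ror1, Ror2 or Ryk. Without a ligand, a complex built on Axin and Apc marks β-catenin (Ctnnb1) for destruction. With one, β-catenin accumulates and joins DNA-bound TCF/LEF proteins at target genes, while other Fzd and Ror signals act on the cytoskeleton and on growing axons. In the embryo, Wnt signals from the dorsal neural tube act on the neural crest cells that give rise to DRG neurons. The 3 factors mapped here are themselves neuronal regulators: Brn3a and Isl1 are homeodomain proteins of all DRG sensory neurons, and Runx3 belongs to the TrkC lineage.

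Each list holds intervals that recurred in a set number of samples, without a signal, a score or a value per sample, so depth is unknown and the spread between embryos could not be measured. A list entry was counted for a gene when its midpoint lay in the gene body or within 50 kb of it, hereafter the window. A promoter was called open when an ATAC peak, and acetylated when an H3K27Ac peak, reached within 1 kb of a start of the gene. A promoter open in every cell and one open in a part of the sorted cells cannot be told apart in such a list. Of 9 genes active in TrkC neurons, most of them also in other neurons and so not particular to this lineage, 9 promoters were open and 8 acetylated. Pou4f1 (Brn3a) was open only, though the study reports high expression of it in these neurons. Runx3 and Ntrk3 (TrkC) are among the 9. The cells were isolated by GFP from the Runx3 BAC or by anti-TrkC, so these states are no independent check. Of 6 markers of blood and endothelium, 1 was open and acetylated (Kdr). Among 4 markers of glia and neural crest, 3 were open and 1 acetylated (Erbb3), with Sox10 in neither list, and among 5 of mesenchyme 5 were open and 2 acetylated. The part of such other cells in the values below was not tested.

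Most of the Wnt pathway genes were open at their promoters, and fewer of them were acetylated. An ATAC peak lay at an own promoter of 43 of 50 members (86.0%, 95% Wilson interval 73.8 to 93.0), against 65.1% of all protein-coding genes. An H3K27Ac peak lay there in 30 of 50 (60.0%, 46.2 to 72.4), against 58.9% of all genes, and both marks in the same 30 members, against 57.7%. The intervals cover the counting of genes only and treat genes as independent, which neighbours are not. Open promoters without acetylation numbered 13 of 50 members (26.0%), whereas 7.37% of all genes had this state. The 7 members in neither list are named with their roles.

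**Figure D1:**
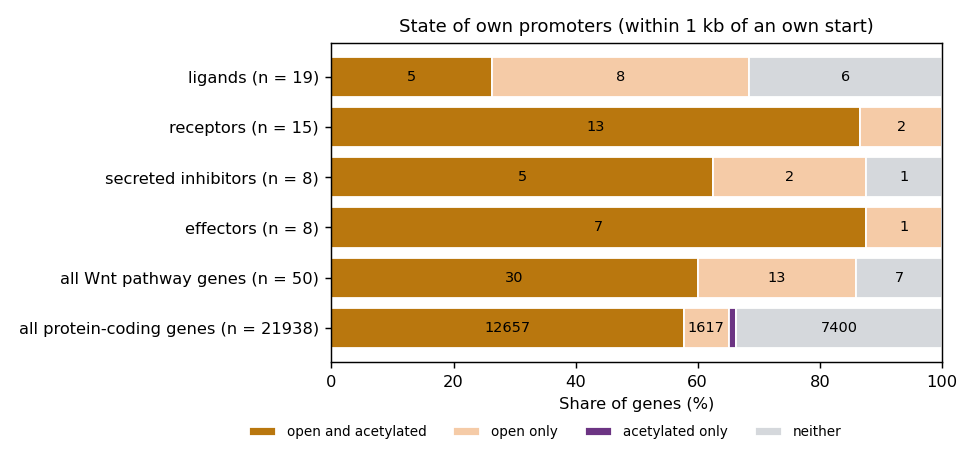
Share of genes (x axis, %) whose own promoter was open and acetylated, open only, acetylated only or neither, for the 4 roles, all 50 Wnt pathway genes and all 21938 protein-coding genes; numbers in the bars are genes. Ligands are split 5, 8 and 6 between open and acetylated, open only and neither, while 13 of 15 receptors and 7 of 8 effectors are open and acetylated.

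The ligands carried most of the open promoters that lacked acetylation. Of 19 Wnt genes, 5 were open and acetylated: Wnt11, Wnt16, Wnt4, Wnt5a and Wnt7b. At Wnt7b the ATAC and H3K27Ac peaks lay at different starts, and in the other 4 at least 1 start had both. Wnt5a and Wnt11 are the ligands best known for signals that bypass β-catenin. Notes on signalling are background given for a few ligands only, and states were not compared by type of signal. Another 8 were open without an H3K27Ac peak, namely Wnt1, Wnt10b, Wnt2, Wnt2b, Wnt5b, Wnt7a, Wnt9a and Wnt9b. Wnt1 is a ligand of the dorsal neural tube. The other 6, Wnt10a, Wnt3, Wnt3a, Wnt6, Wnt8a and Wnt8b, had neither mark at a start of their own. Wnt3a and Wnt3 are classical activators of β-catenin. Hence 38.5% of open ligand promoters (5 of 13, interval 17.7 to 64.5) were acetylated, against 88.7% of the open promoters of all genes. By the ATAC peaks themselves the ligand promoters were also not the widest: the widest ATAC peak at an own promoter had a median of 311 bp over 13 open ligands, against 399 bp over 14274 open genes. The 8 ligands that were open only nevertheless had a median of 311 bp (157 to 330 bp), against 223 bp over the 1617 genes in that state.

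Receptors and effectors were all open at their promoters, against 65.1% of all genes. Of the open promoters, 86.7% (62.1 to 96.3) of receptors and 87.5% (52.9 to 97.8) of effectors were acetylated, near the 88.7% of all genes. All 15 receptor promoters were open, and 13 were acetylated: Fzd1, Fzd2, Fzd3, Fzd4, Fzd7, Fzd8, Fzd9, Fzd10, Lrp5, Lrp6, Ror1, Ror2 and Ryk. Fzd5 and Fzd6 were open only. The Fzd4 promoter lies within 2 kb of a start of Tmem135, so its peaks belong to both genes. All 8 effector promoters were open and 7 were acetylated, those of Apc, Axin1 and Axin2 (the destruction complex), of Ctnnb1 and of the DNA-bound partners Lef1, Tcf7l1 and Tcf7l2. Tcf7 was open only. A start of Ulk4 lies within 2 kb of one of Ctnnb1. Where acetylated, receptor promoters had wide marks, with a median of 1519 bp (584 to 3467 bp) for the widest H3K27Ac peak over 13 genes. The median was 1182 bp over all 12921 acetylated genes. Effectors did not share this, with 1029 bp over 7 genes (840 to 1973 bp). The 5 ligands had 641 bp (534 to 1543 bp).

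The secreted inhibitors were mixed. Sfrp1, Sfrp2 and Sfrp4, which bind Wnt proteins outside the cell, and Dkk2 and Dkk3 were open and acetylated. Sfrp5 and Dkk1, a blocker of Lrp6, were open only, and Dkk4 had neither mark. In counts, 7 of 8 were open and 5 of 8 acetylated.

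These states were read against other genes of the pathway that the rule leaves out. Of 50 of these (among them Porcn and Wls, which make and release Wnt proteins, the Dvl and Gsk3 genes, the R-spondins and their receptors, and the Celsr, Vangl and Prickle genes of planar polarity), 47 were open and 38 acetylated. Cer1, Sost and Tle2 had neither mark. The 9 that were open only, given after their states were seen, were Notum, Wif1, Rspo1, Rspo3, Rspo4, Lgr6, Rnf43, Kremen2 and Celsr1. Their relatives Rspo2, Lgr4, Lgr5, Znrf3, Kremen1, Celsr2 and Celsr3 were open and acetylated. For comparison, 43 of the 50 members were open, 30 acetylated and 13 open only. Of all protein-coding genes, 65.1% were open, 58.9% acetylated and 7.37% open only.

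Base composition gave a further view of these promoters. In the 300 bp from 250 bp before to 50 bp after a gene's most upstream start, the ratio of observed to expected CpG, which is high in CpG islands, had a median of 0.759 over the 50 members (0.227 to 1.28), against 0.525 over all genes. For genes grouped by state, the ratio was also read at the start that carried the ATAC peak, with an H3K27Ac peak where a start had both, a choice made after seeing the data. At their most upstream starts the 8 ligands that were open only had a median of 0.777. This compares with 0.510 over all genes that were open only and 0.744 over all open and acetylated genes. At the starts that carried the peaks these medians were 0.726 (0.464 to 1.13), 0.571 and 0.790. Whether these ligands lay above or below the open and acetylated genes thus depended on the start. Wnt9a (1.13) and Wnt5b (1.06) were the highest of these 8, and Wnt10b (0.464) and Wnt7a (0.529) the lowest. The open start of Wnt7a belonged to no protein-coding transcript and was not its most upstream one, where the ratio was 0.938. The 5 acetylated ligands had a median of 0.508 (0.268 at Wnt7b to 0.837 at Wnt4). The 6 ligands with neither mark had a median of 0.545 at their most upstream start, against 0.167 over the 7400 genes with neither.

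Beyond promoters, the windows of the pathway genes held more ATAC peaks per Mb than those of all genes, but a similar number per gene. Per window the median was 6.50 ATAC and 3.50 H3K27Ac peaks, against 6 and 3 over all genes. Median window lengths were 125 kb and 117 kb. Every one of the 50 windows held an ATAC peak, against 87.7% of all genes' windows, and 48 held an H3K27Ac peak (96.0%), against 80.0%. The 2 without H3K27Ac were those of Wnt2 and Dkk1. In total, with bases shared by windows counted once, the windows spanned 7.09 Mb and held 354 ATAC peaks. This was 50.0 per Mb, against 32.6 per Mb in the windows of all protein-coding genes. Of these, 210 were distal, with their midpoint more than 1 kb from any annotated start, or 29.6 per Mb against 19 per Mb. Ligand windows had the highest distal ATAC density of the 4 roles, 40.5 per Mb, and also the most protein-coding starts, 18.6 per Mb against 13.2 over all windows. Distal H3K27Ac was lowest around the inhibitors, with 4 peaks or 3.98 per Mb, against 17.6 per Mb around ligands, 15.4 around receptors, 17.8 around effectors and 8.64 in all windows.

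**Figure D2:**
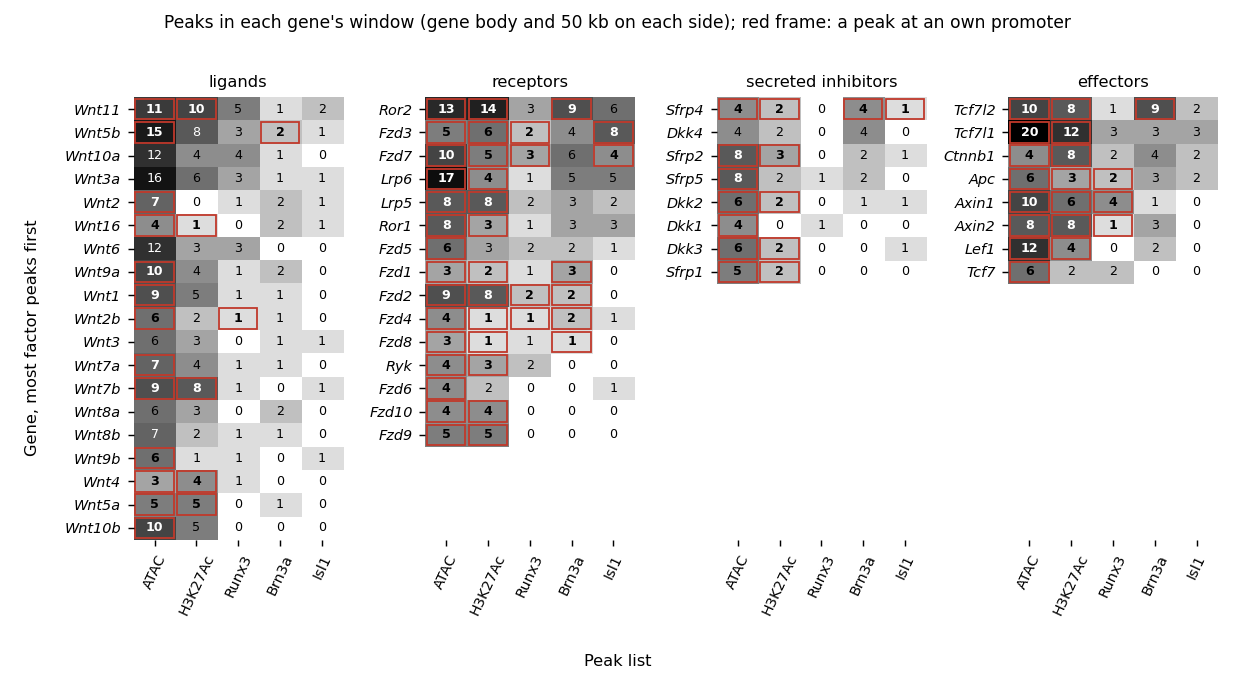
Number of peaks of each list (columns) in the window of each of the 50 Wnt pathway genes (rows), by role, with darker cells for more peaks and a red frame where a peak of that list lay at an own promoter. Ror2 has the most factor peaks (3 Runx3, 9 Brn3a, 6 Isl1), and Wnt10b, Fzd9, Fzd10 and Sfrp1 have none.

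Runx3 and Brn3a were found around most members and Isl1 around 25 of 50, each at about the share seen in all genes. A Runx3 peak lay in the window of 35 of 50 members (70.0%, 56.2 to 80.9), against 63.2% of all genes. For Brn3a the count was 37 (74.0%, 60.4 to 84.1) against 67.8%, and for Isl1 25 (50.0%, 36.6 to 63.4) against 45.4%. The windows of 4 members (8%, 3.15 to 18.8) held no peak of any factor, Wnt10b, Fzd9, Fzd10 and Sfrp1, against 21.0% of all genes. These counts follow the reach of the window: within gene bodies alone each factor touched 12 members. When each peak went only to the nearest protein-coding start, the counts were 25 for Runx3, 26 for Brn3a and 16 for Isl1.

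At the promoters themselves each factor lay at few members. For Runx3 and Brn3a the share was below that of all genes, though within the interval, and for Isl1 about the same. By role, Runx3 lay at an own promoter of 1 of 19 ligands, 4 of 15 receptors, 0 of 8 inhibitors and 3 of 8 effectors. For Brn3a these counts were 1, 5, 1 and 1. Runx3 lay at an own promoter of 8 of 50 members (16%, 8.34 to 28.5), against 27.3% of all genes: Wnt2b among the ligands, Fzd2, Fzd3, Fzd4 and Fzd7 among the receptors, and Apc, Axin1 and Axin2, the scaffold genes of the destruction complex. Brn3a also lay at 8 (16%), against 22.4%, at Wnt5b, Fzd1, Fzd2, Fzd4, Fzd8, Ror2, Sfrp4 and Tcf7l2. Isl1 lay at 3 (6%), against 5.60%, at Fzd3, Fzd7 and Sfrp4. Of the 61 distinct Runx3 peaks in the windows, 8 were centred on a member's promoter, 24 on another annotated start, 11 elsewhere in a member's body, 3 in the body of another protein-coding gene and 15 between genes.

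The list gives for each Runx3 peak the number of RBS, the Runx binding letters NCCNCA with A or G at each N, on either strand. At least 1 RBS was present in 43 of the 61 peaks (70.5%, 58.1 to 80.4), against 71.4% of all 13443 Runx3 peaks. Of the 8 own-promoter peaks, 7 held an RBS, with 6 at Axin1, 4 at Wnt2b and 1 each at Fzd2, Fzd3, Fzd4, Fzd7 and Apc, while the Axin2 peak held none. To show what these promoter sites look like, the RBS nearest to a start of the gene is printed below for all of these but Apc, in capitals with 10 bases on each side, 5′ to 3′ on the strand of the gene, from GRCm38 (mm10). A site reads TGNGGN with C or T at each N where its other strand carries the RBS.
Wnt2b, chr3:104961711-104961736, minus strand, in a UTR: tctggcccccGCCGCActccgcgccc
Fzd2, chr11:102604206-102604231, plus strand, upstream of the gene: ctcattatgtTGTGGTcgaccaatcc
Fzd3, chr14:65262409-65262434, minus strand, in a UTR: tcggcgcgccTGCGGTcctcggccgc
Fzd4, chr7:89404349-89404374, plus strand, in a UTR: aacctccagcGCCACAgagcgctggg
Fzd7, chr1:59482134-59482159, plus strand, upstream of the gene: tagccaccagTGCGGCtcccaggcgt
Axin1, chr17:26138851-26138876, plus strand, in a UTR: ggcggcgctcTGCGGCctgccttgcg
The RBS is a short motif, and it is present in 44.0% of the 300-bp promoter stretches of the members and in 45.0% of those of all protein-coding genes.

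Around the ligands, Runx3 peaks were the most frequent factor and Isl1 peaks the least. The 19 windows held 23 Runx3 peaks (11 per Mb), 18 Brn3a peaks (8.58 per Mb) and 8 Isl1 peaks (3.81 per Mb), against 6.89, 13.9 and 6.94 per Mb in the windows of all genes. Most of the Brn3a peaks here lacked the Brn3a motif V$BRNF, which was marked in 8 of 18 (44.4%), against 72.1% of all Brn3a peaks. Of the 18, 6 (33.3%) were centred on promoters, against 17.7% of all Brn3a peaks. None of these 6 had the motif (interval 0 to 39.0%), against 34.4% of all Brn3a peaks at promoters. Of the 12 distal ones 8 had it (66.7%, 39.1 to 86.2), against 80.2%. Within each class the interval thus held the share of the whole list. There are 4 pairs of ligands that share part of a window (Wnt1 and Wnt10b, Wnt10a and Wnt6, Wnt3 and Wnt9b, Wnt3a and Wnt9a), so that 1 peak may be counted for both genes, while each peak enters the density once.

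Wnt11 had the most factor peaks of the ligands, with 11 ATAC, 10 H3K27Ac, 5 Runx3, 1 Brn3a and 2 Isl1 peaks in its window. Its first 4 Runx3 peaks lay 19.1 to 33.9 kb upstream of a start, with 0 to 4 RBS, and the fifth 41.3 kb downstream, in an intron of Uvrag. The downstream peak overlapped ATAC, H3K27Ac, Brn3a and Isl1 peaks, and both the Brn3a peak and the Isl1 peak carried their motifs. Wnt5b followed, with 15 ATAC, 8 H3K27Ac, 3 Runx3 (3 with RBS), 2 Brn3a (1 with its motif) and 1 Isl1 peak, the last without its motif. A Brn3a peak without the motif lay 0.259 kb from a start of Wnt5b, in no ATAC peak. The Wnt10a window held 12 ATAC, 4 H3K27Ac, 4 Runx3 and 1 Brn3a peak and no Isl1 peak. Its 3 nearest Runx3 peaks, 9.88 to 15.0 kb downstream of a start, included 1 over a coding exon of Wnt10a, and are also in the window of Wnt6. The Wnt2 window had 7 ATAC and no H3K27Ac peak, with 1 Runx3 peak (no RBS), 2 Brn3a peaks and 1 Isl1 peak. Runx3, Brn3a and Isl1 met at 1 site in an intron of Wnt2, 35.4 kb from its start. Of the 15 other ligands, the factor peaks per window ran between 0 and 5.

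**Figure D3:**
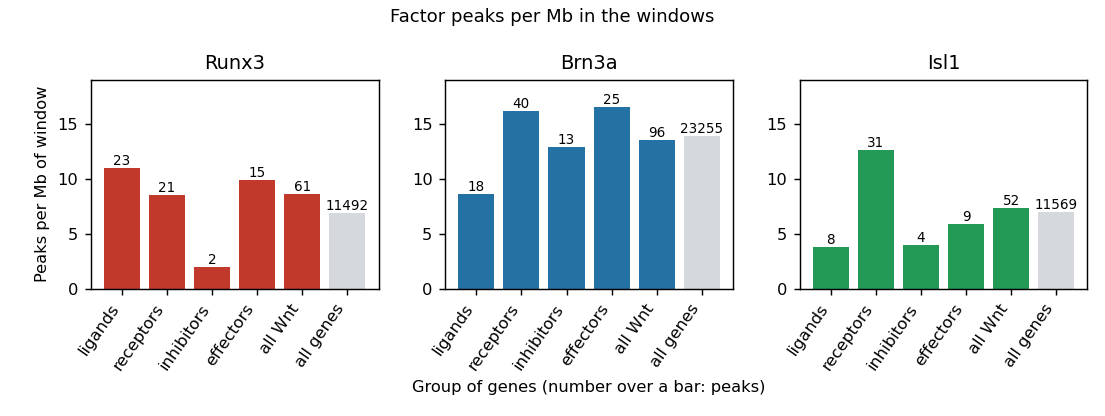
Distinct Runx3, Brn3a and Isl1 peaks per Mb of window (y axis) for the 4 roles, all Wnt pathway genes and all protein-coding genes, with the number of peaks over each bar. Inhibitor windows hold 2 Runx3 peaks (1.99 per Mb), and receptor windows hold 31 Isl1 peaks (12.6 per Mb).

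The receptor windows had the highest Isl1 density of all roles. They held 21 Runx3 (8.52 per Mb), 40 Brn3a (16.2 per Mb) and 31 Isl1 peaks (12.6 per Mb). In the windows of all genes the densities were 6.89, 13.9 and 6.94 per Mb, and Brn3a around the effectors had 16.5 per Mb. The Isl1 peaks were concentrated at a few genes: Ror2, Fzd3, Fzd7 and Lrp6 together had 23 of the 31. Fzd9 and Fzd10 had no factor peak at all and Fzd6 a single Isl1 peak. Isl1 peaks in receptor windows carried the Isl1 motif V$LHXF in 16 of 31 (51.6%), against 71.4% of all Isl1 peaks. Of the 27 distal Isl1 peaks, 17 overlapped Brn3a (63.0%) and 15 lay on neither ATAC nor H3K27Ac (55.6%), near the 62.9% and 50.8% of all distal Isl1 peaks. ATAC was overlapped by 9 (33.3%, 18.6 to 52.2), against 44.9%.

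Ror2, a receptor tyrosine kinase-like protein that binds Wnt5a, had 13 ATAC, 14 H3K27Ac, 3 Runx3, 9 Brn3a and 6 Isl1 peaks in its 277-kb window, the highest factor number of all members. A group of factor peaks lay 197 to 207 kb from its start, beyond the 3′ end of the gene, with 4 Brn3a, 4 Isl1 and 1 Runx3 peaks, while 1 Brn3a peak without the motif lay at the promoter. Fzd3, a receptor needed for the growth of many axon tracts, had 5 ATAC, 6 H3K27Ac, 2 Runx3, 4 Brn3a and 8 Isl1 peaks, the most Isl1 peaks of any member. Of these 8, 4 lay in the gene body and 4 carried V$LHXF, while 2 overlapped ATAC peaks, 1 an H3K27Ac peak and 2 a Brn3a peak. Its 2 Runx3 peaks both held an RBS and both overlapped ATAC and H3K27Ac peaks, 1 of them at the Fzd3 promoter. The short Fzd7 gene had 10 ATAC, 5 H3K27Ac, 3 Runx3 (2 with RBS), 6 Brn3a (all 6 with V$BRNF) and 4 Isl1 peaks (3 with V$LHXF). Brn3a and Isl1 met at 3 sites of the Fzd7 window, 9.06 and 15.8 kb upstream and 38.1 kb downstream of the start, and Runx3 and Isl1 met at its promoter, where Brn3a had no peak.

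Fzd5 and Lrp5 also had a site of all 3 factors. The Fzd5 window held 6 ATAC, 3 H3K27Ac, 2 Runx3, 2 Brn3a and 1 Isl1 peak, and the shared site lay 50.3 kb from a start, in a non-coding gene, with 3 RBS and no ATAC or H3K27Ac peak. Lrp5, the coreceptor, had 8 ATAC, 8 H3K27Ac, 2 Runx3, 3 Brn3a and 2 Isl1 peaks, and its shared site, 39.9 kb away, was at another gene's start, with ATAC and H3K27Ac peaks but no RBS. The other 10 receptors had between 0 and 11 factor peaks, the highest at Lrp6 (1 Runx3, 5 Brn3a and 5 Isl1 peaks). In the Lrp6 window 4 of the 5 Brn3a peaks overlapped Isl1.

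The inhibitor windows held few Runx3 peaks. Of the 8 windows, 2 held one, those of Dkk1 and Sfrp5 (25.0%, 7.15 to 59.1), 2 peaks in 1.01 Mb or 1.99 per Mb, against 6.89 per Mb in all genes' windows, and both were centred on promoters of other annotated starts. The 8 windows held 13 Brn3a peaks (12.9 per Mb, against 13.9) and 4 Isl1 peaks (3.98 per Mb, against 6.94). With 8 genes and 2 peaks these shares have wide intervals. Sfrp4 had 4 ATAC, 2 H3K27Ac, 4 Brn3a (3 with V$BRNF) and 1 Isl1 peak, and a Brn3a and an Isl1 peak met 0.661 kb from a start of the gene, in an intron, both with their motifs and neither on an ATAC peak. Dkk4 had 4 ATAC, 2 H3K27Ac and 4 Brn3a peaks, 2 of these with the motif, and its Brn3a peaks lay 26.1 to 31.3 kb away, in or at the promoters of Vdac3 and Polb or close by. The Sfrp2 window held 8 ATAC, 3 H3K27Ac, 2 Brn3a and 1 Isl1 peak, of which a Brn3a and an Isl1 peak met 18.3 kb upstream. Sfrp1 had 5 ATAC and 2 H3K27Ac peaks and no factor peak. Dkk2 and Sfrp5 had 2 and 3 factor peaks, and Dkk1 and Dkk3 1 each.

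The effectors had a factor peak in each of the 8 windows, while 21.0% of all genes' windows had none. Effector windows were longer, with a median of 179 kb against 117 kb over all genes, so these shares compare windows of unlike length. Together the 8 windows held 15 Runx3 (9.87 per Mb), 25 Brn3a (16.5 per Mb) and 9 Isl1 peaks (5.92 per Mb). In the windows of all genes the densities were 6.89, 13.9 and 6.94 per Mb. Runx3 was present at 7 of 8 effectors (87.5%, against 63.2% of all genes), Brn3a at 7 of 8 (87.5%, against 67.8%) and Isl1 at 4 of 8 (50.0%, against 45.4%). Tcf7l2 had 10 ATAC, 8 H3K27Ac, 1 Runx3, 9 Brn3a and 2 Isl1 peaks. Of its 9 Brn3a peaks, 8 lay in the gene, 7 carried V$BRNF and 3 overlapped ATAC peaks, and 1 covered its first start. Tcf7l1, the TCF gene best known as a repressor, had 20 ATAC peaks, the most of any member, with 12 H3K27Ac, 3 Runx3, 3 Brn3a and 3 Isl1 peaks. All 3 of its Runx3 peaks overlapped Brn3a and ATAC peaks, and 1 of these, centred on an annotated start inside the gene, overlapped Isl1 as well. Ctnnb1 had 4 ATAC, 8 H3K27Ac, 2 Runx3, 4 Brn3a and 2 Isl1 peaks, and every one of its 8 factor peaks carried the motif of its factor. A site of all 3 factors with ATAC and H3K27Ac lay 35.3 kb from a Ctnnb1 start, in an intron of Ulk4. The other 5 effectors had 2 to 7 factor peaks. The Axin1 window had 4 Runx3 peaks, all of them on promoters, with ATAC and H3K27Ac.

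**Figure D4:**
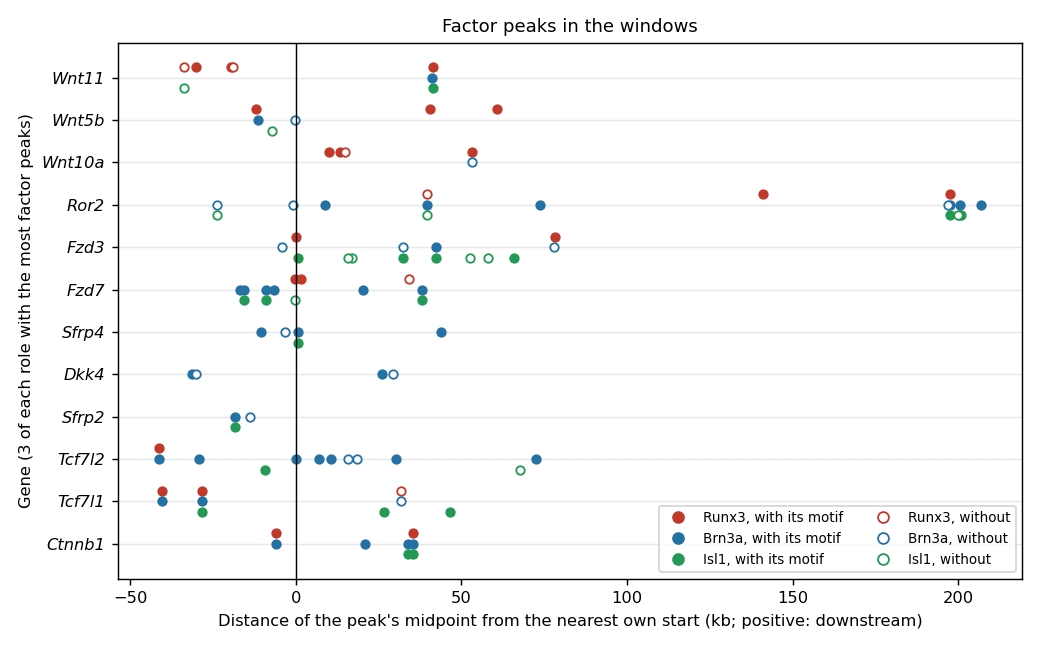
Position of each Runx3, Brn3a and Isl1 peak (x axis, kb from the nearest start of the gene, positive downstream) for the 3 genes of each role with the most factor peaks (rows), filled where the list marks the factor's motif. The group of Ror2 peaks lies 197 to 207 kb downstream of the start, and the 3 inhibitor rows, Sfrp4, Dkk4 and Sfrp2, have no Runx3 peak.

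Runx3 peaks in the pathway windows overlapped the other factors in a smaller share than in the whole list. For overlaps, ATAC peaks under 500 bp were widened to 500 bp and other peaks under 300 bp to 300 bp, and 1 shared base was asked for. Of the 61 Runx3 peaks, 23 overlapped Brn3a (37.7%, 26.6 to 50.3), against 57.6% of all Runx3 peaks. Isl1 was overlapped by 11 (18%, 10.4 to 29.5), against 32.1%, and both by 8 (13.1%, 6.80 to 23.8), against 27.5%. Among the 29 distal Runx3 peaks, 10 overlapped Brn3a (34.5%), against 62.2% of all distal Runx3 peaks. The intervals take peaks as independent, and no test of the differences was made. Seen from the genes, 43 of 50 members (86.0%, 73.8 to 93.0) had no site of all 3 factors in the window, against 82.0% of all genes. The 7 with one were Wnt11, Wnt2, Fzd5, Lrp5, Ror2, which had 2, Ctnnb1 and Tcf7l1.

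**Figure D5:**
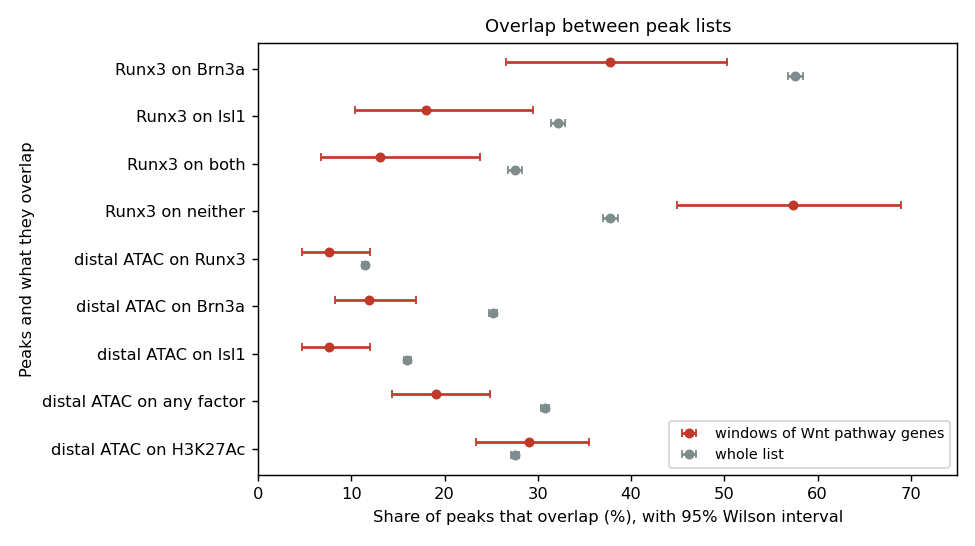
Share of peaks that overlap another list (x axis, %), with 95% Wilson intervals, in the windows of the Wnt pathway genes and in the whole lists. Runx3 peaks overlapped Brn3a in 37.7% against 57.6%, distal ATAC peaks overlapped Brn3a in 11.9% against 25.2%, and distal ATAC peaks overlapped H3K27Ac in 29.0% against 27.5%.

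Much of the open distal chromatin of these windows carried no factor peak. Of the 210 distal ATAC peaks, 40 overlapped a peak of any of the 3 factors (19%, 14.3 to 24.9), against 30.8% of all 40866 distal ATAC peaks. By factor, 25 overlapped Brn3a (11.9% against 25.2%), 16 Runx3 (7.62% against 11.4%) and 16 Isl1 (7.62% against 16%). H3K27Ac was overlapped by 61 (29.0%, 23.3 to 35.5), against 27.5%. Acetylation was present at 19 of the 40 distal ATAC peaks with a factor (47.5%, 32.9 to 62.5) and at 42 of the 170 without (24.7%, 18.8 to 31.7), against 37.1% and 23.3% in the whole list. Around the inhibitors 2 of 25 distal ATAC peaks were acetylated (8%), against 29 of 85 around ligands, 16 of 59 around receptors and 14 of 41 around effectors. Conversely, 38 of 68 distal Brn3a peaks (55.9%) and 25 of 46 distal Isl1 peaks (54.3%) lay on neither ATAC nor H3K27Ac, against 59.4% and 50.8% in the whole lists.

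The sites of all 3 factors are shown for the 2 roles in which a Runx3 peak of up to 300 bp with an RBS overlapped a Brn3a peak with V$BRNF and an Isl1 peak with V$LHXF, and had no UTR in it. The inhibitors had no such site, and the effector sites at Ctnnb1 and Tcf7l1 were longer. Both peaks are printed whole, 5′ to 3′ on the strand of the gene, with each RBS in capitals, from GRCm38 (mm10).
Wnt11 site, chr7:98888993-98889176, plus strand, in an intron of Uvrag: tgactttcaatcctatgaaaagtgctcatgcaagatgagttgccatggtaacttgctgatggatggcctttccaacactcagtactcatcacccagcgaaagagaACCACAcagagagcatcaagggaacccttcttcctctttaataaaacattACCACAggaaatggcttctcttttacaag
Ror2 site, chr13:53077982-53078228, minus strand, between genes: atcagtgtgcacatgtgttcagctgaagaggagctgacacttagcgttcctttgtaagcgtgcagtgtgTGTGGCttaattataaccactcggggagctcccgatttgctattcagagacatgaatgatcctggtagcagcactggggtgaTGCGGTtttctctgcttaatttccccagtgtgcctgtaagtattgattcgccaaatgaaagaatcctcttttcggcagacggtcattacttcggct
The Wnt11 peak holds 2 copies of the RBS in the same direction, 41.3 kb downstream of a start, and overlapped ATAC and H3K27Ac peaks. The Ror2 peak also holds 2, 198 kb downstream of a start, and overlapped neither.

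Axin2 is the textbook target of β-catenin, and its promoter was open and acetylated and held a Runx3 peak without an RBS. The letters CTTTGAT or CTTTGTT, in either direction, are the core that TCF/LEF proteins recognise. Of the ATAC peaks that reach an own promoter of Axin2, 2 held such letters once each, and those of Lef1 held none. They are printed in capitals with 11 bases on each side, 5′ to 3′ on the strand of the gene, to show the only such letters in these open promoter peaks.
Axin2, chr11:108920416-108920444, plus strand, in a UTR: agccggctgcgCTTTGATaaggtcctggc
Axin2, chr11:108921221-108921249, plus strand, in an intron: cggccggcgcgCTTTGATgtgcggggcgg
In 300 bp around their midpoints, 37 of 354 ATAC peaks in the windows held the letters (10.5%, 7.68 to 14.1), against 10.8% of all ATAC peaks. At promoters the share was 15 of 144 (10.4%, 6.41 to 16.5), against 6.04%, and among distal peaks 22 of 210 (10.5%, 7.02 to 15.4), against 13.5%. The letters were in 8% of the 300-bp promoter stretches of members, at Wnt11, Wnt3, Wnt8a and Dkk4, against 8.70% of all genes. A match says only that the letters are there.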

How the data were processed

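The authors deposited 1 consensus list each for ATAC, H3K27Ac, Runx3, Brn3a and Isl1, as intervals on mm10 with, per the file headers, a count of RBS motifs (Runx3) or a mark of the motif V$BRNF (Brn3a) or V$LHXF (Isl1). Per the study's methods, reads were trimmed with Cutadapt, aligned to mm10 (with Bowtie2 for ATAC), freed of duplicates with Picard 1.119 for ATAC, and called with MACS2, for CUT&RUN against NRS samples. Only short CUT&RUN fragments were used for calling, and peaks lying largely in repeats were removed. A consensus peak recurred in 2 of 3 ATAC, 3 of 5 H3K27Ac, 4 of 8 Runx3, 2 of 2 Brn3a and 2 of 3 Isl1 samples, so a peak under these limits is missing here and the number of samples differs between lists. The deposited lists give no depth and no value per sample, and no column of per-sample values was left unmapped.

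Genes and starts came from GENCODE M21 and sequence from GRCm38.p6, which share chromosome coordinates with mm10. Starts were read as 1-based: the RBS counted in the sequence then equalled the deposited count in 13443 of 13443 Runx3 peaks. 1 Brn3a peak on the mitochondrial genome was left out. Peaks within 1 kb of any annotated start were called promoter peaks, the others distal. Members are described by counts beside the same counts over all protein-coding genes or all peaks, with Wilson intervals (95%) and no test. Full values are given, by role, for the 3 genes with the most factor peaks and for genes with a site of all 3 factors; ties went by symbol. The RBS at own promoters were added to the sequences after their values were seen. The members and the lists were chosen with earlier results of these data known. Code was tested on simulated data, in Python 3.11.15 with numpy 2.4.6, pandas 2.3.3, scipy 1.17.1, pysam 0.24.0 and matplotlib 3.10.9. Signal per peak and reads were not analysed here. Of the markers of glia and neural crest, 2 are not reported here. Alternatives changed the reach of the window, the promoter, the overlap, the gene given a peak and the motif.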

Additional observations from a re-analysis of the deposited data

How the results depend on the processing

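The limits of these values are those of the lists. They hold no depth and no value per sample, so leaving out a sample could not be run, and no paired analysis was possible because the lists hold no value per sample. A peak in the window need not act on the gene, and the windows of ligands also held more starts of other genes. Of 42 alternatives over 10 results, 30 kept the value within 1.5 times (for a percentage, within its interval) and 12 did not. Of the 42, 4 were chosen after seeing the data: 2 with starts of protein-coding transcripts only, and 2 with the CpG ratio at the start that carries the state. The counts of open and acetylated promoters, the percentage of Runx3 peaks with an RBS (70.5% to 80.0%) and that of distal ATAC peaks on H3K27Ac (27.1% to 35.4%) stayed within these limits. Open promoters numbered 39 to 43 and acetylated ones 28 to 30, and ligands that were open only 7 or 8 of 19. With the most upstream start only, Wnt10b, Wnt11 and Wnt7a were no longer open, Wnt7b lost its acetylation and became open only, and Ctnnb1 had neither mark, so 2 of the 5 open and acetylated ligands changed state. Wnt7a was also no longer open with starts of protein-coding transcripts only. With promoters cut to 100 bp downstream of a start, Wnt10b was no longer open and Dkk2 was open only. When the peak midpoint had to lie within 1 kb, Fzd8 and Lef1 were open only. The window moved the factor counts. With gene bodies alone, Runx3, Brn3a and Isl1 each had a peak at 12 members and the sites of all 3 factors numbered 3. With 10 kb on each side, the members numbered 22 for Runx3, 22 for Brn3a and 16 for Isl1, and the sites 4. With 100 kb there were 21 sites. Peaks given to the nearest protein-coding start left 16 members for Isl1 and 4 sites, and peaks with their own motif left 5 sites. In each case fewer, or more, bases or peaks were counted.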
